A study of Homo sapiens with 12 samples.

Results

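The mRNAs described here were crosslinked to the human translation initiation factor eIF3 in their 5′ untranslated region (5′ UTR), but were found with only some of the 4 eIF3 subunits studied. A gene was taken when the deposited cluster table, in which a line is a stretch of RNA covered by reads of 1 subunit, gave it 5′ UTR clusters for 1, 2 or 3 of eIF3a, eIF3b, eIF3d and eIF3g. This rule gave 218 genes of the 331 with any 5′ UTR cluster, or 65.9%, and 457 of 1001 5′ UTR clusters, in a table of 1477 clusters and 479 genes. A subunit is called missing for a gene when the table has no 5′ UTR line for it. Missing does not mean 0 reads, because the table holds no cluster with fewer than 8 reads and no reads outside clusters.

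All 12 libraries came from 293T cells, a line derived from human embryonic kidney, and form 4 groups of 3 replicates named for eIF3a, eIF3b, eIF3d and eIF3g. Every group received 100 µM 4-thiouridine for 14 h, was crosslinked at 0.15 J per square cm, and was immunoprecipitated with the same antibody against eIF3b. The bound RNA was shortened by RNase T1, and complexes were separated on an SDS gel and excised. No library made without crosslinking or with another antibody is among the 12, and no separate cultures are named. Each cluster has a single value with no replicate, so nothing below carries an SD or a test between libraries. None of the 20 markers of other cell types that were searched (blood, liver, muscle, nerve, endothelium, fibroblast) had a cluster.

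eIF3 binds the small ribosomal subunit and helps it to load onto mRNA near the 5′ end. The complex is built on eIF3a and other scaffold subunits, eIF3b and eIF3g carry RNA recognition motifs, and eIF3d has been described as able to bind the mRNA cap. The 5′ UTR is the stretch that the scanning ribosome crosses before the start codon, and structures in it can hold an mRNA under separate translational control. In PAR-CLIP, 4-thiouridine built into RNA crosslinks to a touching protein and is copied as if it were C, so T-to-C conversions mark crosslinked positions. The abundance of each mRNA was not measured, so more mRNA and more binding per mRNA cannot be told apart.

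Which subunits were missing was set by the rule and is given as a description. Of the 218 genes, 73 were listed for 3 subunits, 80 for 2 and 65 for 1. The most frequent pattern was absence from eIF3b alone, in 42 genes, among them BRD2, a bromodomain reader of acetylated chromatin, ENO1, the glycolytic enzyme enolase, TCP1, a subunit of the cytosolic chaperonin, and UBB, a ubiquitin precursor. By contrast 13 genes were missing eIF3a alone, 9 eIF3d alone and 9 eIF3g alone. Among genes of 2 subunits, eIF3a with eIF3d was found in 23, eIF3d with eIF3g in 17, eIF3a with eIF3g in 15, eIF3b with eIF3g in 10, eIF3a with eIF3b in 8 and eIF3b with eIF3d in 7.

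**Figure D1:**
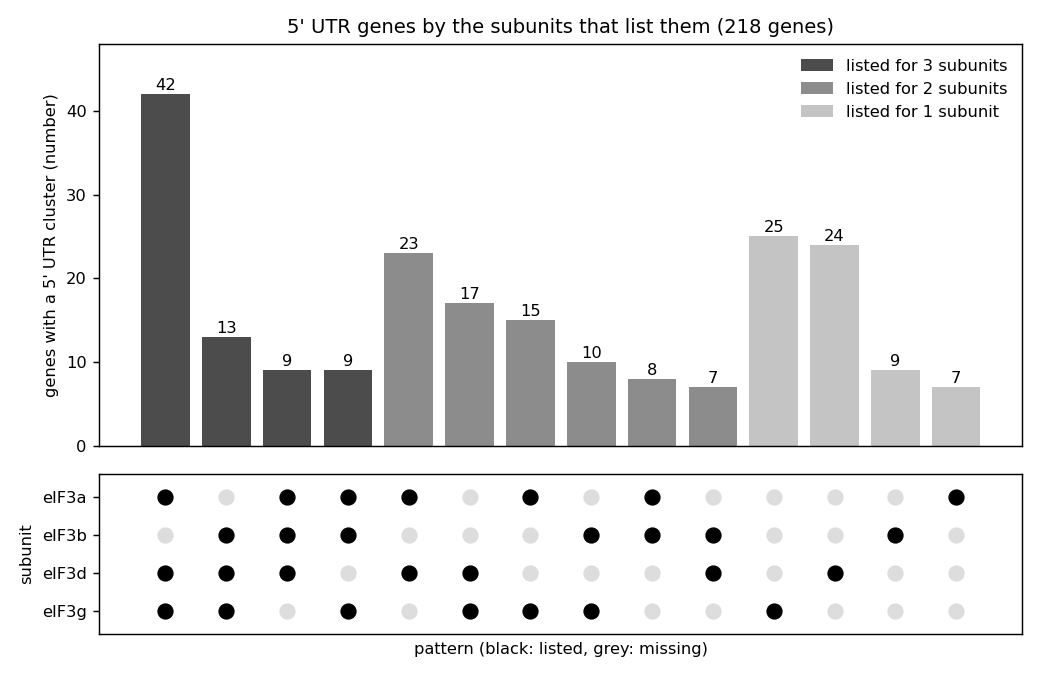
Number of genes (y axis) for each pattern of listed subunits, with black dots for the subunits that list the gene's 5′ UTR and grey dots for those that do not. The pattern of eIF3a, eIF3d and eIF3g without eIF3b holds 42 genes, the next patterns hold 25, 24 and 23.

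eIF3b was missing in 153 of the 218 genes, or 70.2% (95% Wilson interval 63.8 to 75.9), eIF3a in 105 (48.2%, 41.6 to 54.8), eIF3g in 87 (39.9%, 33.6 to 46.5) and eIF3d in 83 (38.1%, 31.9 to 44.7). Over all 331 genes with a 5′ UTR cluster the shares were 46.2%, 31.7%, 26.3% and 25.1%, in the same order by construction, since the other 113 genes miss none. These intervals cover counting error only and treat genes as independent. The depth of the lists moved with this order at its upper end: 5′ UTR clusters held 8397 reads in eIF3b and 9834 in eIF3a, against 12759 in eIF3g and 12023 in eIF3d. The part of depth in the missing lines was not tested. When the eIF3b list was set aside, a choice made after seeing the data, 167 of 322 genes (51.9%) were still missing from at least 1 of the other lists.

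The subunits also differed in how often they stood alone. Of the genes listed for 1 subunit (19.6% of all 5′ UTR genes), eIF3g held 25, eIF3d 24, eIF3b 9 and eIF3a 7. As a share of the incompletely listed genes of each subunit these were 19.1% of 131 in eIF3g, 17.8% of 135 in eIF3d, 13.8% of 65 in eIF3b and 6.19% of 113 in eIF3a. Thus a gene of this group found with eIF3a was nearly always found with another subunit too. Between eIF3a and eIF3d 74 genes were common, 65.5% of the eIF3a genes and 54.8% of the eIF3d genes, and between eIF3a and eIF3b 26, which were 23% of the eIF3a genes and 40% of the eIF3b genes.

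Reads were low throughout this set, and they are given as a description, since the reads of a cluster may bear on whether it was listed. Reads of a gene in different subunits are compared below without scaling to the depth of the lists. Median reads per cluster were 15 for eIF3a, eIF3b and eIF3g and 16 for eIF3d. The highest clusters held 82 reads for eIF3g, 80 for eIF3a, 57 for eIF3b and 53 for eIF3d. Clusters of the 113 genes listed for all 4 subunits had medians of 30, 22, 29 and 25, and reached 684, 665, 2256 and 3109. Of the clusters of incompletely listed genes, 82.6% of those of eIF3d, 80.3% of eIF3a, 80.1% of eIF3g and 74.2% of eIF3b lay below those medians. The 2 groups of genes overlap widely at the low end, where 87 of 457 clusters (19.0%) and 36 of 544 (6.62%) had 10 reads or fewer.

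Median reads were 14 for genes of 1 subunit, 14 for genes of 2 and 17 for genes of 3. At least 1 cluster of 40 or more reads was present in 34 of the 218 genes, against 70 of the 113 listed for all 4. At the other end, 12 genes had no cluster above 10 reads, such as ACOT13, an acyl-CoA thioesterase, with 8 reads in eIF3a and 8 in eIF3b. The border of the rule is not a border in reads: RPL35A, a ribosomal protein listed for all 4 subunits, showed 18 reads for eIF3a, 13 for eIF3b, 9 for eIF3d and 13 for eIF3g. IGF2BP1, an RNA-binding regulator of mRNA stability also listed for all 4, showed 13, 13, 18 and 17. Just inside, BRD2 and EIF3B had 154 summed reads each and no 5′ UTR line in eIF3b.

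**Figure D2:**
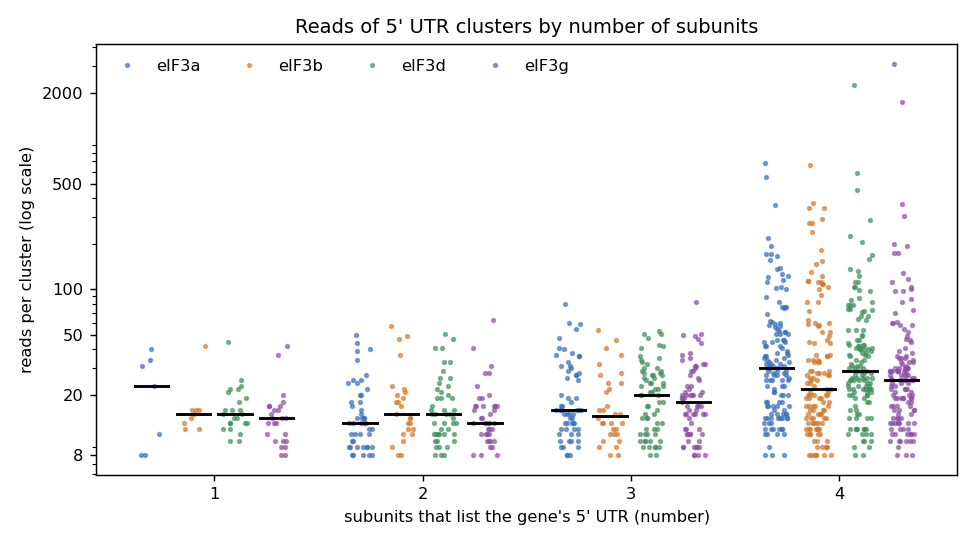
Reads per 5′ UTR cluster (log scale) by the number of subunits that list the gene, with 1 point per cluster, colours for the subunits and a black line at each median. The medians of genes listed for all 4 subunits lie between 22 and 30, those of genes listed for 3 between 14.5 and 20, and the highest cluster outside the complete genes has 82 reads.

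Subunits that list the same gene can differ in reads without one being missing. In the 113 complete genes the strongest subunit had a median of 2.58 times the reads of the weakest, and up to 17.4 times. In genes of 3 subunits the median was 2.29 and the highest 6.0, over their listed subunits only. The lowest listed subunit had 10 reads or fewer in 29 of the 73 genes of 3 subunits and in 17 of the 113 complete genes.

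Genes missing eIF3b alone made up 16 of the 20 genes with most summed reads and 27 of the first 50. Summed reads grow with the number of listed subunits, and this pattern held 42 of the 73 genes of 3 subunits. Its 3 lists also held more 5′ UTR reads each than the eIF3b list, so this ranking does not show stronger binding. BRD2 had 59 reads in eIF3a, 48 in eIF3d and 47 in eIF3g, all over the same 21 nt (hg19, chromosome 6, 32940062 to 32940083, plus strand). Its 3 values lie close together as unscaled reads, although the eIF3a list held fewer 5′ UTR reads than those of eIF3d and eIF3g. ENO1 had 48, 51 and 38 reads in the same subunits (chromosome 1, 8938674 to 8938719, minus strand). TCP1 had 27, 35 and 51, and UBB had 60, 30 and 11, so that eIF3a was highest in UBB and lowest in TCP1. MED13, a subunit of the kinase module of the Mediator complex, had 80 reads in eIF3a, 33 in eIF3d and 23 in eIF3g (chromosome 17, 60142613 to 60142642, minus strand). PCBP1, a poly(C)-binding protein of RNA stability and translation, had 41, 36 and 20. PTPMT1, a mitochondrial phosphatase, had 30, 51 and 21, and YWHAG, a 14-3-3 protein, had 26, 26 and 25. No order of the 3 subunits was common to these genes: over the 42 genes the median reads per cluster were 16 in eIF3a, 23 in eIF3d and 20 in eIF3g.

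The reads that genes missing a subunit had elsewhere were compared next. The strongest listed cluster had a median of 18 reads in the 153 genes missing eIF3b, 17 in the 83 missing eIF3d, 16 in the 105 missing eIF3a and 16 in the 87 missing eIF3g. It reached 40 or more in 24, 11, 10 and 8 of them. The genes missing eIF3b thus had the highest median, by 1 or 2 reads. The reads that a missing subunit itself had at the site are not in the table.

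Among the 13 genes missing eIF3a alone, PFN1, the actin monomer binder profilin, had 21 reads in eIF3b, 43 in eIF3d and 22 in eIF3g, summed over its clusters. PTBP1, a polypyrimidine tract-binding splicing regulator, had 46, 10 and 26. SNRPD3, a core protein of spliceosomal small nuclear ribonucleoproteins, had 15, 16 and 18, and SRSF3, an SR splicing factor, had 12, 11 and 20. Thus PTBP1 was highest in eIF3b and PFN1 in eIF3d, while SNRPD3 was near even in unscaled reads. HIST1H2BN, a replication-dependent histone, had 21, 27 and 13.

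Of the 9 genes missing eIF3d alone, 5 had their most reads in eIF3b. EIF4G3, a scaffold that joins the cap-binding protein to eIF3, had 28 reads in eIF3a, 54 in eIF3b and 9 in eIF3g (chromosome 1, 21502638 to 21502684, minus strand). E2F6, a repressor among the E2F transcription factors, had 12, 8 and 21 and did not follow this order. Over this pattern, median reads per cluster were 15 in eIF3a, 27 in eIF3b and 11 in eIF3g. TLE3, a transcriptional corepressor, had 12 reads in eIF3a, 28 in eIF3b and 57 in eIF3g, of which 49 were at a separate site described below.

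Among the genes missing eIF3g alone, COA4, a factor of cytochrome c oxidase assembly, had 36 reads in eIF3a, 15 in eIF3b and 29 in eIF3d. SLC16A1, a monocarboxylate transporter, had 31, 24 and 22, and TRA2A, a splicing regulator, had 36, 13 and 12. In these 3 genes eIF3a was highest. CFL1, the actin-severing protein cofilin, had 15, 13 and 14, with hardly any difference in unscaled reads.

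**Figure D3:**
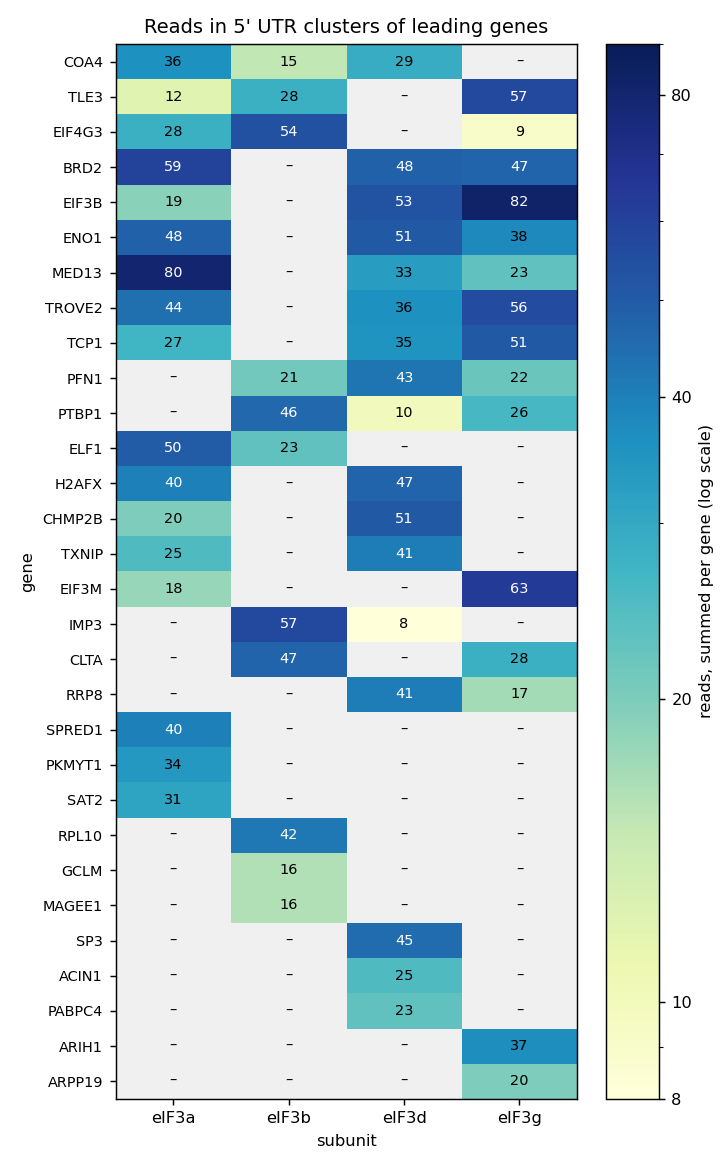
Reads summed over the 5′ UTR clusters of a gene (colour, log scale, with the value printed) for leading genes of each pattern, by subunit, with a dash where the table has no 5′ UTR line. The largest value is 82, for EIF3B in eIF3g, and the genes of a single subunit reach 45 at most.

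Genes of 2 subunits included H2AFX, the histone variant of DNA damage signalling, with 40 reads in eIF3a and 47 in eIF3d (chromosome 11, 118966145 to 118966170, minus strand). The same subunits listed CHMP2B, a protein of membrane scission, with 20 and 51 reads, and TXNIP, a thioredoxin-binding regulator of glucose uptake, with 25 and 41. All 3 had more reads in eIF3d, whose 5′ UTR clusters held 12023 reads in all against 9834 in eIF3a. Reads were not scaled for this, and the direction in H2AFX depends on it. ELF1, an ETS family transcription factor, was listed for eIF3a with 50 reads and eIF3b with 23. CLTA, a clathrin light chain, had 47 reads in eIF3b and 28 in eIF3g. IMP3, a protein of ribosomal RNA processing, had 57 in eIF3b and 8 in eIF3d, the largest ratio among genes of 2 subunits. RRP8, a nucleolar methyltransferase, had 41 in eIF3d and 17 in eIF3g.

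Genes of 1 subunit were led by SP3, a GC-box transcription factor, with 45 reads in eIF3d. RPL10, a protein of the large ribosomal subunit, had 42 reads in eIF3b alone (chromosome X, 153626805 to 153626830, plus strand). In eIF3a alone were SPRED1, an inhibitor of Ras signalling, with 40 reads, PKMYT1, a kinase that holds back mitotic entry, with 34, and SAT2 with 31. In eIF3b the next genes were lower: GCLM, a subunit of the enzyme of glutathione synthesis, and MAGEE1 had 16 reads each. ACIN1, a nuclear factor of splicing, and PABPC4, a poly(A)-binding protein, had 25 and 23 reads in eIF3d, and ARIH1, a ubiquitin ligase, and ARPP19, an inhibitor of a mitotic phosphatase, had 37 and 20 in eIF3g.

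A missing line could stand under another annotation of the table, which the rule did not use. The 218 genes have 428 missing pairs of gene and subunit. In 0 of the 428 did a line of any annotation and the missing subunit overlap the gene's 5′ UTR clusters on the same strand. A line over such a site would mostly carry the 5′ UTR annotation. The rule excluded that, so the 0 was largely set in advance. In 5 pairs of 4 genes the missing subunit had a line elsewhere in the gene. EIF3B had no eIF3b line in its 5′ UTR, yet 19 eIF3b reads in a coding exon, where eIF3a had 35. EIF3M, another subunit of eIF3, was missing eIF3b and eIF3d in its 5′ UTR but had 89 and 103 reads of them in a coding exon and 25 and 46 under a 3′ UTR annotation. ARF4, a small GTPase of vesicle formation, had 8 eIF3b reads in a coding exon against 97 of eIF3g. STIP1, a co-chaperone that links HSP70 to HSP90, had no eIF3g line over its 5′ UTR site on chromosome 11 (63953683 to 63953710, plus strand) but had 29 eIF3g reads at the start codon, from 63953715 to 63953735.

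Position was not used by the rule, and subunits that listed the same gene were nearly always at the same place. Of 299 pairs of subunits in the 153 genes of 2 or 3 subunits, 292 (97.7%) had clusters overlapping by at least 1 nt, against 672 of 678 pairs (99.1%) in the complete genes. The 5′ ends were identical in 65.8% of the overlapping pairs and the 3′ ends in 65.1%, and both in 49.3%, against 71.9%, 69.3% and 54.0% in the complete genes. All 3 subunits had the same start and end in 25 of 73 genes, among them BRD2, TCP1, PTPMT1, SMG9, HSPA14 and TRIM68. Both subunits did so in 40 of 80 genes of 2 subunits.

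In 5 genes some pair of subunits did not overlap. EIF1, the factor that guards start codon selection, had eIF3d at 39845175 to 39845199, eIF3g at 39845194 to 39845217 and eIF3a at 39845204 to 39845231 of chromosome 17, so that eIF3a and eIF3d lay 5 nt apart and eIF3g overlapped both. In BEX2 the eIF3b cluster lay 517 nt from that of eIF3a and eIF3d, with 11 reads against 13 and 24. NLGN2, a synaptic adhesion protein, had its eIF3a and eIF3g clusters 175 nt apart. In SERP1, whose sites are given next, eIF3b and eIF3d lay 94 nt apart.

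Only 8 of the 218 genes had more than 1 cluster in a subunit, against 24 of the 113 complete genes. TROVE2, the RNA-binding protein Ro60, had 2 sites, and the same subunits, eIF3a, eIF3d and eIF3g, listed both, with 83 and 53 summed reads. DGCR2 likewise had 2 sites of these 3 subunits, with 55 and 39 reads. Elsewhere the sites of 1 gene differed: TLE3 had 1 site of eIF3a, eIF3b and eIF3g with 48 reads and another of eIF3g alone with 49. PFN1 had 1 site of eIF3b, eIF3d and eIF3g with 50 reads and 1 of eIF3b and eIF3d with 36. SERP1, a stress-associated protein of the endoplasmic reticulum, had 1 site of eIF3d and eIF3g and 1 of eIF3b and eIF3g.

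Sites missing from some subunits were also found within complete genes. When 5′ UTR clusters were joined into 376 loci by overlap, 256 (68.1%) were missing from some subunit, and 27 of these were in 20 of the complete genes. Missing eIF3b alone was the most frequent pattern, in 51 of the 256 loci, most of them sites of the genes already counted above. Among the 27 loci of complete genes it was the most frequent too, in 7. MBOAT7, a lysophospholipid acyltransferase, had such a locus with 129 reads, and CDC25A, a phosphatase of the cell cycle, one with 118. In 3 of the complete genes no single locus was listed for all 4 subunits.

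Clusters were short. Their width, taken as end minus start, had a median of 25 nt in eIF3b and 24 nt in each of the other subunits. In the complete genes it was 26 nt in eIF3b, 25 in eIF3a and eIF3g and 24 in eIF3d. Wide clusters were rarer outside the complete genes, where the widest reached 113 nt: here the widest had 51 nt. Clusters over 30 nt made up 19.7% of those of eIF3b (13 of 66), 5.98% in eIF3a, 5.07% in eIF3d and 7.35% in eIF3g. In the complete genes they were 26.9%, 19.0%, 14.4% and 13.8% in the same order, so eIF3b had the highest share in both.

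The same held gene by gene in some pairs. Where eIF3a and eIF3b clusters overlapped, eIF3b was wider in 12 genes, narrower in 4 and equal in 9, and against eIF3g it was wider in 14, narrower in 6 and equal in 11. Against eIF3d the counts were 8, 8 and 11, with no direction. EIF4G3 had 46 nt in eIF3b against 26 in eIF3a and 37 in eIF3g. FBXO7, a substrate receptor of a ubiquitin ligase, had 49 nt in eIF3b and 29 in eIF3a, and BOD1, a protein of chromosome alignment, had 42 in eIF3b and 26 in eIF3g. The narrowest clusters were those of eIF3a in RPL9 and in DDX6, an RNA helicase of mRNA decay, with 10 nt each, overlapping clusters of 25 nt or more of the other subunits.

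**Figure D4:**
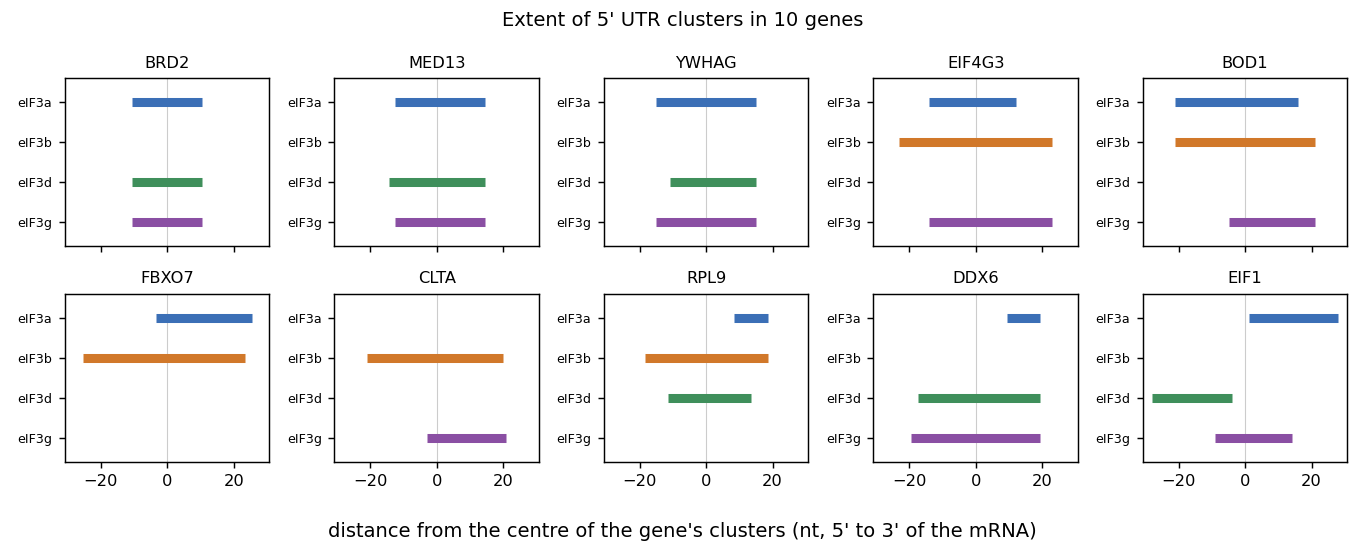
Extent of each subunit's 5′ UTR cluster in 10 genes, as distance in nt from the centre of the gene's clusters, with the 5′ side of the mRNA on the left. BRD2 shows identical extents, EIF4G3, BOD1, FBXO7 and CLTA a wider eIF3b cluster, RPL9 and DDX6 a narrow eIF3a cluster of 10 nt, and EIF1 clusters of eIF3a and eIF3d that do not overlap. The genes were picked to show these cases.

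T-to-C conversions per read had medians of 1.06 in eIF3b, 1.0 in eIF3a and eIF3g and 0.238 in eIF3d. The complete genes had 1.06 in eIF3b, 1.0 in eIF3a, 1.06 in eIF3g and 0.167 in eIF3d. By these medians, incompletely listed genes carried conversions at about the same rate per read in eIF3a and eIF3b. Summed conversions over summed reads were 1.02 here and 0.921 in the complete genes in eIF3a, and 1.03 and 1.05 in eIF3b. They were 0.973 and 0.596 in eIF3g, and 0.225 and 0.0966 in eIF3d. Such sums give most weight to genes with many reads. In eIF3g the complete genes include BTG1, with 294 conversions over 3109 reads, and JUN, with 142 over 1735. In eIF3a BTG1 had 74 over 684. The lower sums of the complete genes in eIF3a and eIF3g thus do not describe a typical complete gene. In eIF3d clusters the median count of conversions was 4 here and 6 in the complete genes. Within genes, eIF3d was lower than eIF3a in 73 of 74, lower than eIF3b in 28 of 29 and lower than eIF3g in 71 of 72. EIF3B was the exception against eIF3a and against eIF3g. FASTK, a kinase-like protein of mitochondrial RNA biology listed in eIF3d alone, had 17 conversions in 16 reads and was the 1 eIF3d cluster of this set above 0.75 per read. Conversions hardly rose with reads in eIF3d: its clusters in the complete genes reached 2256 reads but at most 20 conversions. The most conversions of a cluster there were 803 for eIF3b, 622 for eIF3a and 336 for eIF3g. Whether eIF3d conversions were counted as in the other lists was not tested, so the low ratios do not show less crosslinking.

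Outside eIF3d, some clusters stood far from 1 conversion per read. Below 0.5 were 9 of 117 clusters in eIF3a, 3 of 66 in eIF3b and 6 of 136 in eIF3g. In the same order, 5, 2 and 6 clusters had 1.5 or more. Only some of them are named here. EIF3B showed 1 conversion over 19 reads of eIF3a and 4 over 82 of eIF3g, and EIF3M 2 over 18 and 10 over 63. Both encode subunits of the factor that was immunoprecipitated. RUVBL1, an ATPase of chromatin and assembly complexes, had 4 in 28 reads in eIF3g, and LRRC58 had 2 in 27 in eIF3b, although it had 17 in 17 in eIF3a. At the high end TRIM68, a ubiquitin ligase, showed 80 conversions over 40 reads of eIF3a and 58 over 29 of eIF3g, 2.0 per read in each. TROVE2 showed 42 over 25 in eIF3a and 36 over 19 in eIF3g at its downstream site, and SLC16A1 52 over 31 in eIF3a. Across genes listed for both, Spearman's rho of conversions per read lay between 0.0503 (eIF3b and eIF3g, 32 genes) and 0.283 (eIF3b and eIF3d, 29 genes) over the 6 pairs of subunits, weak in each. These are descriptions across genes, which share libraries and low read counts and are no replicates.

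**Figure D5:**
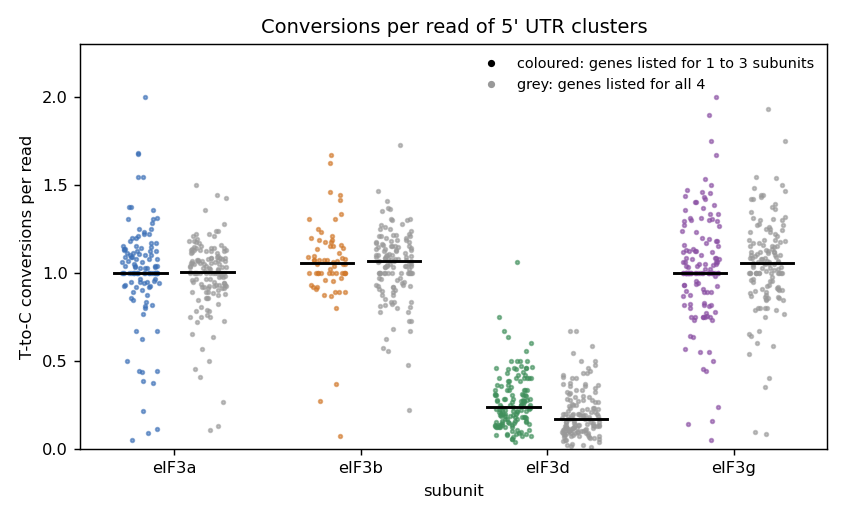
T-to-C conversions per read of each 5′ UTR cluster by subunit, coloured for genes listed for 1 to 3 subunits and grey for genes listed for all 4, with a black line at each median. The medians of eIF3a, eIF3b and eIF3g lie between 1.0 and 1.06 in both groups and those of eIF3d at 0.238 and 0.167.

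The functions of the genes were read from lists defined by gene family names, which took in 109 of the 218 genes. Each count is given as incompletely listed genes of all 5′ UTR genes of the list, beside the 65.9% over all 331 genes. No test was made, and most lists are too short to place against that share. Among proteins of translation, 5 of 9 translation factors were incomplete: EIF3B, EIF4G3, EIF3M, PABPC4 and EIF1, which had 16, 8 and 23 reads in eIF3a, eIF3d and eIF3g. Of cytosolic ribosomal proteins 3 of 9 were, each with a different pattern, though some missing subunits were shared. RPL9 was missing eIF3g, with 9, 22 and 15 reads in eIF3a, eIF3b and eIF3d. RPL10 was in eIF3b alone, and GNB2L1, the ribosomal scaffold RACK1, had 22 reads in eIF3a and 11 in eIF3g.

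Of splicing and hnRNP proteins 9 of 19 were incomplete, and 5 of the 9 were missing eIF3a, beside 48.2% of all 218 genes, namely PTBP1, SNRPD3, SRSF3, ACIN1 and SNRPD2. The others were PCBP1, TRA2A, MBNL2 and HNRNPH3. Of RNA helicases and factors of mRNA export and decay 4 of 7 were, all of them missing eIF3b, as were 70.2% of all 218 genes: SMG9, of nonsense-mediated decay, with 29, 29 and 32 reads in eIF3a, eIF3d and eIF3g, DDX6 with 8, 9 and 15, CPSF7, of 3′ end processing, with 9 in eIF3a and 16 in eIF3d, and XPOT, a tRNA exporter, with 14 in eIF3g.

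All 7 incomplete chromatin regulators, of 12, were missing eIF3b, among them BRD2, MLL5 (now KMT2E) with 38, 18 and 9 reads in eIF3a, eIF3d and eIF3g, and NAP1L3, of the nucleosome assembly family, with 44 in eIF3a and 13 in eIF3g. Of histones 3 of 4 were incomplete, 2 of them missing eIF3b: H2AFX, HIST1H2BN and H3F3B, the replacement histone H3.3, with 15, 10 and 27 reads in eIF3a, eIF3d and eIF3g. All 7 incomplete cell cycle genes, of 13, were missing eIF3b as well, led by CDK2AP2 with 13, 27 and 35 reads in eIF3a, eIF3d and eIF3g, PCNA, the sliding clamp of DNA replication, with 14, 28 and 17, and CKS2, a cofactor of cyclin-dependent kinases, with 27 in eIF3a and 26 in eIF3d. Since 70.2% of all incomplete genes were missing eIF3b, these lists are not shown to stand apart. Of transcription factors 9 of 15 were incomplete, 8 of them missing eIF3b, with E2F6 as the exception.

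Of 8 chaperones and co-chaperones 5 were incomplete, and 0 of the 5 were missing eIF3a, beside 48.2% of all 218 genes, a list too short to set apart: HSPA4 with 39 reads in eIF3a and 17 in eIF3b, HSPH1 with 18 and 9 and STIP1 with 9 and 18 were in eIF3a and eIF3b only, while TCP1 and HSPA14, with 9, 21 and 31 reads in eIF3a, eIF3d and eIF3g, were missing eIF3b. HSPA4 and HSPH1 are related nucleotide exchange factors of HSP70. Only 8 genes in all had the pattern of eIF3a with eIF3b. Of ubiquitin and proteasome genes 9 of 12 were incomplete, among them UBB, TRIM68 with 40, 9 and 29 reads in eIF3a, eIF3d and eIF3g, and RNF167 with 13, 20 and 31.

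In the remaining lists, 4 of 7 cytoskeletal genes were incomplete (PFN1, CFL1, CAP1 and MARCKSL1, which had 19 reads in eIF3b and 23 in eIF3d) and 15 of 22 signalling genes, with PTPMT1 and YWHAG as the first by reads. Membrane traffic had 10 of 12, with ARF4 (16, 41 and 32 reads in eIF3a, eIF3d and eIF3g), CLTA and CHMP2B as the strongest. Solute carriers and other membrane proteins had 11 of 17, and a list made from names of mitochondrial gene families 7 of 8. That list is not a count of mitochondrial proteins, since it lacks PTPMT1 and holds SLC25A17. It was led by SLC25A36, a nucleotide carrier, with 55, 24 and 11 reads in eIF3a, eIF3d and eIF3g, by NDUFC1, of respiratory complex I, with 9 in eIF3a and 24 in eIF3d, and by SLC25A17, a peroxisomal carrier of that family, with 14 in eIF3a and 19 in eIF3g. The list of metabolic genes had 3 of 7, of which ENO1 is a metabolic enzyme, TXNIP is a regulator and PKMYT1 was taken in only by its name. Nuclear transport had 2 of 3, XPOT and KPNB1, an importin, with 29 reads in eIF3d and 8 in eIF3g.

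The bases at the start of the transcripts were compared as a feature outside the table. RefSeq transcript starts of the GRCh38 build were found for 181 of the 218 genes and 99 of the 113 complete genes. In the first 50 nt the median share of T (U in the mRNA) was 18% in the incompletely listed genes, 20% in the complete genes and 18% over 15843 protein-coding genes. The longest run of pyrimidines had a median of 5 nt in each of the 3 groups. This window is not the crosslinked site, whose sequence needs the hg19 genome and was not analysed here.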

How the data were processed

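PAR-CLIP clusters of eIF3a, eIF3b, eIF3d and eIF3g in 293T cells were taken from 1 table. Reads and T-to-C conversions are whole-number counts that the authors deposited per cluster and subunit without normalization, per the file headers. The positions are hg19 as the table gives them, with the base of counting not stated. The submitters' processing notes name cutadapt, Bowtie and bedtools without versions. No source used here gives the cluster caller, its thresholds or how the 3 replicates were combined.

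Genes were keyed by Ensembl ID, and symbols of 215 of 218 genes matched the RefSeq table. Counts, medians, overlaps (at least 1 nt) and Wilson intervals were computed with Python 3.11.15, pandas 2.3.3 and scipy 1.17.1, after the rule was tested on simulated data. No test was run, because values are pooled and the rule used them. The members and lists were chosen with earlier results of these data known. Named genes are the leading members by reads in each class, pattern, subunit and list, genes with lines of another annotation, and the edges of the rule. Named after their values were seen are ACOT13, BEX2, BOD1, CAP1, CDC25A, DGCR2, FASTK, FBXO7, HNRNPH3, LRRC58, MBNL2, MBOAT7, NLGN2, RUVBL1, SERP1, SNRPD2, SNRPD3 and SRSF3, as well as EIF1, HSPH1 and STIP1 beyond the first 3 of their lists. A few genes taken by the naming rule are left out of the text and plots. BTG1 and JUN, which are complete genes, were also named after their values were seen. Alternatives were other gene keys, annotations, read limits, overlaps and scalings.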

Additional observations from a re-analysis of the deposited data

How the results depend on the processing

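The number of incompletely listed genes was 219 by gene name, 232 with start codon lines, 318 with lines of any annotation and 256 as loci, with shares between 65.9% and 68.1%. With only lines at or above the subunit's median reads it was 161 of 213, or 75.6%, and the shares missing eIF3a, eIF3d and eIF3g became 59.0%, 46.6% and 51.6%. Without the eIF3b list, chosen after seeing the data, it was 51.9%, and of these genes 57.5% were missing eIF3a and 46.7% eIF3g. Per 10000 reads in 5′ UTR clusters the median reads were 15.3 for eIF3a, 17.9 for eIF3b, 13.3 for eIF3d and 11.8 for eIF3g, so the near-equal medians depend on leaving reads unscaled. With the strongest cluster per gene 88.9% of eIF3d values lay below the median of the complete genes, and summed conversions over summed reads gave 0.973 in eIF3g. A start within 100 nt gave 1 line of the missing subunit, in STIP1. Of 71 alternatives 57 stayed within 1.5 times the count or the interval, and among the gene lists histones went from 3 to 5 with start codon lines. Setting the eIF3b list aside takes out the 42 genes missing eIF3b alone and the 9 listed for eIF3b alone. The shares without that list follow from these counts. The causes of the other shifts were not tested. No paired analysis was possible because the table has no replicate column, and for the same reason leaving out a replicate and edgeR were not run. Depth limits what a missing line means, since reads below 8 are not tabulated.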

Other observations

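Some related genes were listed for different subunits, and all are named after their values were seen. Of circadian clock genes, PER1 was in eIF3d alone with 10 reads, CRY1 had 10 reads in eIF3a, 9 in eIF3b and 19 in eIF3g, and NR1D1 had 11 in eIF3a and 21 in eIF3d. Regulatory subunits of the phosphatase PP2A were missing different subunits: PPP2R5A had 8, 10 and 34 reads in eIF3a, eIF3b and eIF3d, and PPP2R2A had 8, 20 and 17 in eIF3b, eIF3d and eIF3g. Other related genes shared a pattern in part. TSC22D1 and TSC22D2, of a leucine zipper family, were in eIF3d alone with 15 and 22 reads, but TSC22D3 of the same family was listed for all 4 subunits (eIF3d 104 reads, eIF3b 103, eIF3g 58 and eIF3a 25). ZFAND5 and ZFAND6, zinc finger proteins, were in eIF3g alone with 16 and 10. Mitochondrial ribosomal proteins were in eIF3a and eIF3d (MRPL3 with 13 and 19 reads, MRPL52 with 12 and 10), in eIF3b and eIF3d (MRPL55 with 10 and 11) or in eIF3g alone (MRPL21 with 15). At such read counts no pattern here was tested.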
